A study of Mus musculus with 6 samples.

Results

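In mouse haematopoietic stem cells with and without induction of the ETV6-RUNX1 fusion, 10 genes grouped here as B-lineage commitment genes were examined. They were Ebf1, Pax5, Il7r, Dntt, Rag1, Rag2, Cd79a, Cd79b, Vpreb1 and Blnk, taken by gene symbol from the deposited expression table, where each of the 10 had 1 gene ID among 55471. All 6 libraries came from stem cells of mice with the ETV6-RUNX1 genotype, sorted as negative for lineage markers and CD48 and positive for Kit, Sca1 and CD150. The uninduced group (n = 3) came from mice whose labels name no treatment, and the induced group (n = 3) from mice fed doxycycline for 2 weeks. The controls therefore carried the transgene too, and doxycycline and the fusion cannot be told apart. The promoter that drives the transgene, the age and strain of the mice, and whether animals were pooled are not given in the sources used here. Libraries labelled as replicates are not stated to come from separate mice, so p-values measure the spread between libraries.

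B cells arise from stem cells through lymphoid progenitors in which E2A (Tcf3), Ikaros, PU.1 and signals through the interleukin 7 receptor permit expression of Ebf1. Ebf1 and Pax5 then act together to switch on the signalling parts of the B-cell receptor and to close other lineages, while the Rag1 and Rag2 recombinase and the polymerase encoded by Dntt assemble and diversify the immunoglobulin genes. ETV6-RUNX1 is the product of a translocation of childhood B-cell precursor leukaemia and joins the ETV6 amino-terminal part to the DNA-binding domain of RUNX1.

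The RUNX1 DNA-binding domain reads the core TGTGGT, so the promoters of the commitment genes were searched for it on both strands. RefSeq windows of 300 bases, from 250 before to 50 after each start (GRCm38.p6), were matched for 9 of the 10 genes, with 10 windows in all. Cd79b had no entry. The core was found in 3 windows, the first of Ebf1 and those of Il7r and Rag1, and in 16.8% of all 32851 windows in the table. The second Ebf1 window (chr11:44619978-44620277) lacked it. These 3 are printed because the core lies in them. Capitals mark the core.
Ebf1 (chr11:44617850-44618149, plus strand): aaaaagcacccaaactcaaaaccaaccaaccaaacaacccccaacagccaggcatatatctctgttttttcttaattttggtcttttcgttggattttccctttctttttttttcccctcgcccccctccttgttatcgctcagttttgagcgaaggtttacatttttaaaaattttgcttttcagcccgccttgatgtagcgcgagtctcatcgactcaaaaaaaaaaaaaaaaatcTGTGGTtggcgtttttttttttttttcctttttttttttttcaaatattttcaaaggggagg
Il7r (chr15:9529827-9530126, minus strand): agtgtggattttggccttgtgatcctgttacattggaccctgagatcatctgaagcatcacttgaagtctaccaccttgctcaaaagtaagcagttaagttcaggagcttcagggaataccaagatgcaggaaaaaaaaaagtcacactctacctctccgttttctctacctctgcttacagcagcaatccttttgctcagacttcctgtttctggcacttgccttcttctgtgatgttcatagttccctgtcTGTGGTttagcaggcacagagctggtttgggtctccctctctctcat
Rag1 (chr2:101649483-101649782, minus strand): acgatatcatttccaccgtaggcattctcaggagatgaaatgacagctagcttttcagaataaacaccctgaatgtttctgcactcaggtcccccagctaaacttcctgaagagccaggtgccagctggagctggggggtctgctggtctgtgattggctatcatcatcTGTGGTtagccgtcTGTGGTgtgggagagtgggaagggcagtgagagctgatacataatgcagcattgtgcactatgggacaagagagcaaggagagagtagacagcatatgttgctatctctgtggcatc
With the start base counted as 0, the core began at -12 in Ebf1, at 3 in Il7r, and at -81 and -67 in Rag1. The E-box CAGGTG, read by E2A, was in the windows of 4 genes, namely Rag1, Cd79a, Vpreb1 and Blnk, and in 20.2% of all windows. No RUNX core overlapped an E-box in these windows, and a match describes the letters only.

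Transcript levels were in TPM, reads per unit of gene length as a share of the library, which keeps no sequencing depth, so no detection limit can be given. Nearly the whole B-lineage commitment set was at or near 0 in both groups. Of the 10 genes, 6 were listed at 0 TPM in all 6 libraries, 9 stayed under 1 TPM in all 6, and Cd79b alone was above 1 TPM, in every library. Among 21920 nuclear protein-coding genes, 37.8% were listed at 0 in all 6 libraries and 47.2% stayed under 1 TPM. The 3 genes between these classes, Rag1, Rag2 and Vpreb1, were each above 0 in a single library. Each library thus held 1 or 2 of the 10 genes above 0: 2, 1 and 2 in uninduced replicates 1 to 3 and 1, 1 and 2 in induced replicates 1 to 3.

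**Figure D1:**
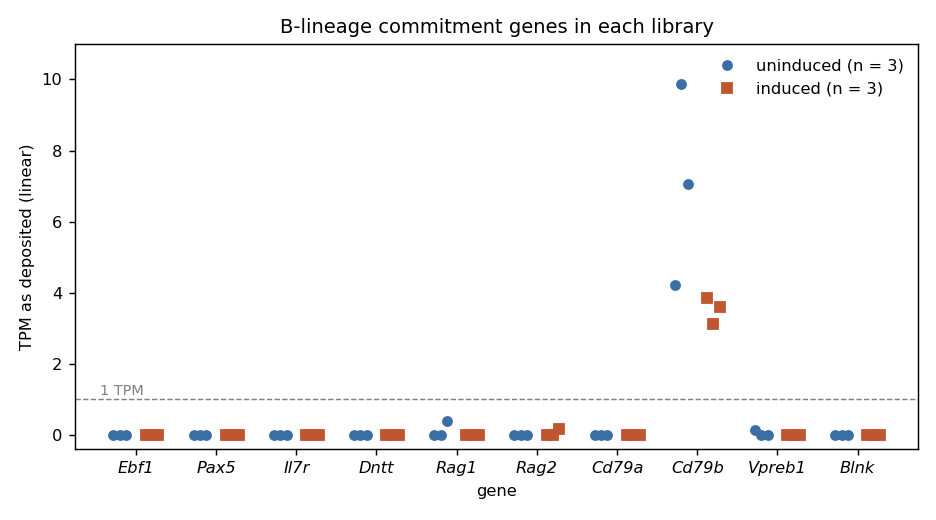
TPM as deposited (linear axis) of each of the 10 genes in the 3 uninduced (circles) and 3 induced (squares) libraries, with a dashed line at 1 TPM. Cd79b lies between 3.11 and 9.86 TPM, while no other gene exceeds 0.388 TPM.

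A listed 0 can also be a missing estimate. In families used by every cell (proteasome, RNA polymerase, spliceosomal, mitochondrial ribosome and respiratory chain genes, chosen after the data were seen), 5 of 231 gene IDs were listed at 0 in all 6 libraries. Psmb11 and Ndufa4l2 are tissue-restricted and the Atp5o entry is a second ID of a detected gene, but Mrps10 and Ndufs3 are used by all cells. The zeros below are therefore given as listed. Nuclear protein-coding genes held only 26.6% to 32.9% of the TPM in uninduced and 20.5% to 23.2% in induced libraries, without overlap. So 1 TPM in the table corresponded to 3.04 to 3.76 TPM among those genes in uninduced libraries. In induced libraries it corresponded to 4.30 to 4.87 TPM among them. Counted on that scale, 8 in place of 9 commitment genes stayed under 1 TPM, because Rag1 in uninduced replicate 3 passed it.

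The transcription factors that define commitment were listed at 0 throughout. Ebf1 (ENSMUSG00000057098, chr11:44617317-45008091), the pioneer factor of the B lineage, was listed at 0 TPM in each of the 3 uninduced and 3 induced libraries. Pax5 (ENSMUSG00000014030, chr4:44524757-44710487), which maintains B-cell identity, was likewise listed at 0 in all 6. The 5 annotated genes that lie within the Ebf1 and Pax5 loci were at 0 in all 6 libraries as well, apart from 4930517J16Rik at 0.0265 TPM in induced replicate 3.

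The early lymphoid and recombination genes gave the same picture. Il7r (ENSMUSG00000003882, chr15:9505788-9530176), the alpha chain of the interleukin 7 receptor, and Dntt (ENSMUSG00000025014, chr19:41029275-41059525), the template-independent polymerase of lymphoid progenitors, were listed at 0 in all 6 libraries. Rag1 (ENSMUSG00000061311, chr2:101638282-101649501), the catalytic subunit of the recombinase, was at 0, 0 and 0.388 TPM in the uninduced libraries and at 0 in each induced library. Rag2 (ENSMUSG00000032864, chr2:101624718-101632529), its partner, was at 0 in each uninduced library and at 0, 0 and 0.168 TPM in the induced ones. The 2 recombinase genes were thus never above 0 in the same library, and for both the groups overlapped, with an exact two-sided permutation p of 1. Both lie within the gene B230118H07Rik, on the same strand as Rag1 and the opposite strand to Rag2, which was at 3.60 to 7.89 TPM over the 6 libraries, so the low Rag values are uncertain where its reads could be assigned to them.

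The pre-B-cell receptor parts and the adaptor that carries their signal were also at or near 0. Vpreb1 (ENSMUSG00000059305, chr16:16868403-16870843), a piece of the surrogate light chain, was at 0.140, 0 and 0 TPM in the uninduced libraries and at 0 in each induced library (exact two-sided permutation p of 1). Its end overlaps Top3b on the opposite strand, which was at 14.3 to 33.3 TPM. Cd79a (ENSMUSG00000003379, chr7:24897381-24902197), the Ig-alpha signalling chain, and Blnk (ENSMUSG00000061132, chr19:40928927-40994535), the adaptor that links the receptor to its downstream enzymes, were listed at 0 in all 6 libraries.

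Cd79b (ENSMUSG00000040592, chr11:106311341-106314762, minus strand), which encodes the Ig-beta chain that pairs with Cd79a, was the exception. It was at 4.21, 9.86 and 7.06 TPM in uninduced replicates 1 to 3 and at 3.85, 3.11 and 3.59 TPM in induced replicates 1 to 3. The induced libraries lay close together and below all 3 uninduced ones, the nearest of which was replicate 1. Its mean over the 6 libraries was above that of 65.4% of nuclear protein-coding genes. No annotated gene overlaps the Cd79b locus.

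The means of Cd79b were 7.04 ± 2.83 TPM (SD, n = 3) without and 3.52 ± 0.378 TPM (SD, n = 3) with induction. The change on the log2(TPM + 1) scale was -0.77 (SE 0.36, 95% interval -1.58 to 0.036), with a limma p of 0.0591 and an adjusted p of 0.197 over 13470 genes. Cd79b was the single commitment gene that reached the expression minimum for testing, a mean of at least 1 TPM, and it did not pass the threshold of 0.05. So 0 of the 10 genes were called at a limma adjusted p under 0.05, where 11.5% of all tested genes were. The unadjusted limma p of Cd79b fell under 0.05 in 2 of the 17 alternative fits, without a variance trend (0.0422, interval -1.51 to -0.036) and without uninduced replicate 1 (0.0179, interval -1.88 to -0.23), with limma adjusted p of 0.173 and 0.119. The groups of Cd79b did not overlap on the deposited scale, with the induced libraries lower, as was so for 28.2% of tested genes. The exact two-sided permutation p was 0.1, the smallest that 3 libraries against 3 can give.

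The groups of Cd79b were apart on the deposited scale and overlapped under each of 3 other scalings. The median log2 change of all tested genes was -0.35 on the deposited scale. After median-of-ratios scaling Cd79b was at 3.50, 7.75 and 6.68 in the uninduced and 4.34, 3.77 and 3.81 in the induced libraries, so the groups overlapped (log2 change -0.43, limma adjusted p 0.515). As TPM among nuclear protein-coding genes it was at 14.1, 30.0 and 26.5 and at 17.5, 15.1 and 15.5, and uninduced replicate 1 lay below every induced library (log2 change -0.46, limma adjusted p 0.520). After quantile normalization the groups overlapped as well (log2 change -0.43, limma adjusted p 0.528). The direction of the mean difference was the same on all 4 scales, and its interval included 0 on each.

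**Figure D2:**
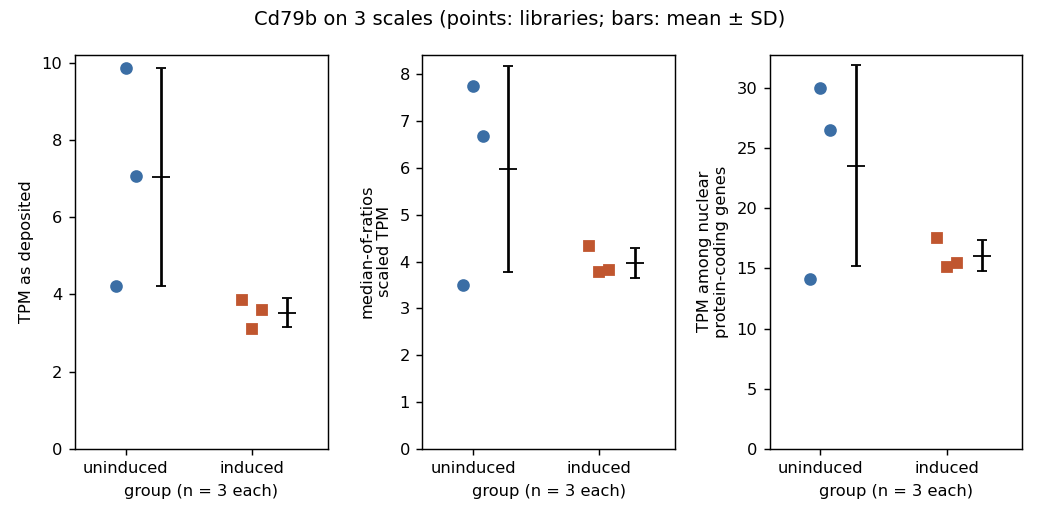
Cd79b in each library on the deposited TPM, after median-of-ratios scaling, and as TPM among nuclear protein-coding genes (linear axes from 0; points are libraries, bars the mean ± SD, n = 3 per group). The groups are apart on the first scale, with exact permutation p 0.1, and overlap on the other two, with exact permutation p 0.4.

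The summed TPM of the 10 genes was that of Cd79b with small additions. Without induction it was 4.35, 9.86 and 7.45 TPM, and with induction 3.85, 3.11 and 3.76 TPM, a difference in means of -3.64 TPM (exact two-sided permutation p 0.1). The difference was -2.11 after median-of-ratios scaling and -7.90 TPM among nuclear protein-coding genes, and on both scales the groups overlapped (exact two-sided permutation p 0.4). Without Cd79b the sum was at most 0.388 TPM in any library.

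Transcripts of other lymphoid cells were set beside Cd79b, since a bulk value cannot tell fewer cells of a type from less RNA per cell. Of 7 markers of mature B and plasma cells none exceeded 1 TPM, and Ms4a1, Fcer2a and Ighd were among those listed at 0 in all 6 libraries. The summed level of these markers was 0.421 to 1.62 TPM in uninduced and 0.744 to 0.921 TPM in induced libraries. The immunoglobulin constant regions Igkc and Ighm, also transcripts of B and plasma cells but kept in the B-cell receptor list, did exceed 1 TPM, unlike the 7 markers. Igkc was at 1.66 to 8.22 TPM in uninduced and 0.0636 to 1.02 TPM in induced libraries, and Ighm at 1.90 to 8.86 TPM and at 0 to 1.25 TPM, so that for both, as for Cd79b on the deposited scale, every induced library lay below every uninduced one. Of 9 T-cell markers 7, including Cd3d, Cd3e, Cd3g and Trac, were listed at 0 in all libraries, and the summed level was 2.38 to 15.4 TPM and 0.348 to 7.08 TPM, nearly all of it Lck, a kinase of T-cell receptor signalling. Of 6 NK-cell markers Ncr1 and Prf1 were listed at 0 in all libraries, and the summed level was 5.84 to 16.3 TPM in uninduced and 0.253 to 3.58 TPM in induced libraries. Nkg7, a cytotoxic granule protein, was at 6.21, 15.8 and 5.84 TPM in the uninduced libraries and listed at 0 in the 3 induced ones, a fall that passed the test (limma adjusted p 0.00378). Gzma and Eomes were above 0 in induced replicate 3 alone, at 2.82 and 0.315 TPM, and Klrb1c was at 0.775, 0.513 and 0 TPM and at 0.253, 0.354 and 0.444 TPM. Uninduced replicate 2 was the highest library for Cd79b, Lck and Nkg7, but not for Igkc or Ighm. Igkc was at 8.22, 1.66 and 4.85 TPM in uninduced replicates 1 to 3, and Ighm at 1.90, 2.04 and 8.86 TPM. The stem cell marker Kit was also highest in uninduced replicate 2 (232 TPM), and Procr was not (45.9 TPM). The part of other lymphoid cells in the Cd79b values was not tested. All 4 markers of plasmacytoid dendritic cells, which share Rag and Dntt expression with lymphoid progenitors, were listed at 0. The 10 defining stem cell markers were present, summing to 643 to 854 TPM in uninduced and 689 to 769 TPM in induced libraries. Cd48, the surface protein against which the cells were sorted, was at 3.02, 0 and 0.690 TPM without induction and at 0.991, 0 and 0 TPM with it, and the groups overlapped. Granulocyte and monocyte markers summed to 234 to 284 TPM in both groups, erythroid markers to 52.0 to 58.4 TPM in uninduced and 386 to 449 TPM in induced libraries, and megakaryocyte markers to 102 to 135 and 119 to 129 TPM.

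Of the genes that precede or serve the commitment genes, most reached the expression minimum. In 4 lists of 84 genes in all, 63 reached it, 19 stayed under 1 TPM in all 6 libraries, 10 of them in the B-cell receptor list, and 12 of the 19 were listed at 0 throughout. Of these 63 genes 1 was called higher and 4 lower in induced cells (1.59% and 6.35%), beside 1.29% and 10.2% of all tested genes. Their median log2 change was 0.00032, beside -0.35 for all tested genes. After median-of-ratios scaling the split turned to 8 higher and 1 lower (12.7% and 1.59%), beside 388 higher and 418 lower of all tested genes (2.88% and 3.1%), with a median of 0.36 beside 0.0032.

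**Figure D3:**
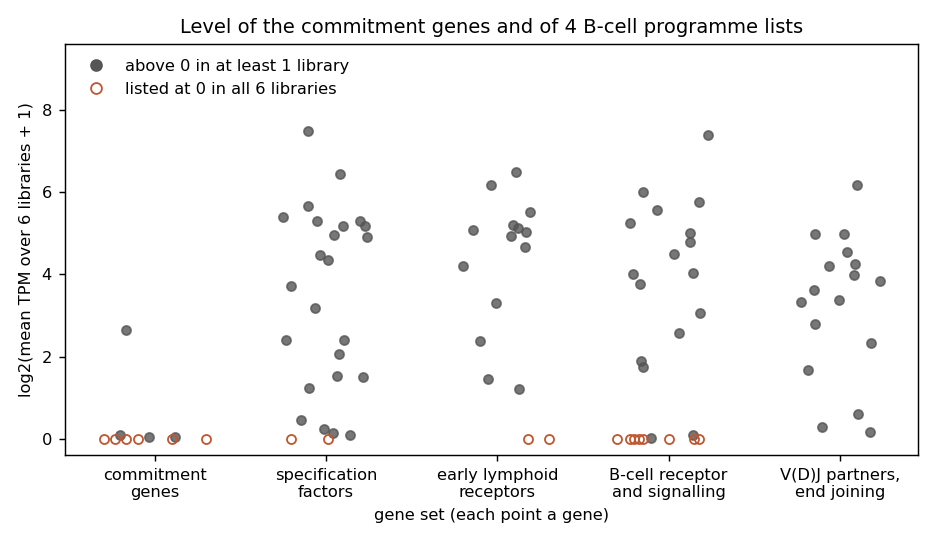
Level of each gene as log2(mean TPM over 6 libraries + 1) for the 10 commitment genes and the 4 B-cell programme lists (each point a gene, open points listed at 0 in all 6 libraries). Of the commitment genes 6 of 10 are open points, and of the 84 list genes 12.

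Transcription factors that specify B cells were expressed for the most part: of 26 genes 20 were tested, 1 rose (5%, beside 1.29% of all tested genes) and none fell, and the median change was 0.056. After median-of-ratios scaling 2 were called higher (10%, beside 2.88%) and 0 lower, with a median of 0.42. Gfi1, a repressor active in stem cells and lymphoid progenitors, rose from 3.88, 3.46 and 2.16 TPM to 12.5, 13.6 and 12.5 TPM, with no overlap between groups (log2 change 1.76, SE 0.30, limma adjusted p 0.00709). Irf8, an interferon regulatory factor of myeloid and B cells, was at 0.592, 2.38 and 2.99 TPM and at 7.37, 7.02 and 5.42 TPM, also without overlap. Its log2 change of 1.44 missed the threshold in TPM as deposited (limma adjusted p 0.0547), and it was the second gene called higher after median-of-ratios scaling (1.73, limma adjusted p 0.0457), and was singled out after its values were seen. The most abundant were Myb, a progenitor factor required for B-cell development, at 202 ± 17.0 and 156 ± 7.61 TPM (SD, n = 3 each), Erg at 83.1 ± 11.6 and 87.5 ± 15.5 TPM, and Bcl11a at 52.8 ± 7.15 and 47.0 ± 4.57 TPM, none of which passed (limma adjusted p 0.126, 0.852 and 0.613). The signs of the Myb and Bcl11a changes turned positive under median-of-ratios, quantile and protein-coding scaling, without passing. Tcf3, which encodes E2A, had means of 47.9 ± 9.12 and 29.1 ± 7.36 TPM (SD, n = 3 per group), a limma adjusted p of 0.0852 and overlapping groups. Ikzf1, which encodes Ikaros, was at 29.9 ± 1.71 and 30.1 ± 12.1 TPM (limma adjusted p 0.910), and Spi1, which encodes PU.1, at 29.5 ± 8.17 and 40.4 ± 0.0567 TPM (limma adjusted p 0.217). Tcf3, Ikzf1 and Spi1 were singled out as the textbook activators of Ebf1 after their values were seen. Of the 5 genes of the list under 1 TPM in all 6 libraries, Ikzf3 and Lef1 were listed at 0 in all of them. Irf4 was listed at 0 without induction and was at 0.132, 0.0731 and 0.213 TPM with it. Spib was at 0.382, 0 and 0 TPM and at 0.486, 0 and 0.273 TPM, and Pou2af1 at 0, 0 and 0.662 TPM and at 0 in each induced library.

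The receptors and signalling genes of early lymphoid cells showed no call on the deposited scale. Of 16 genes 14 were tested and 0 were called in either direction by limma, beside 1.29% higher and 10.2% lower of all tested genes. The median change was 0.22, beside -0.35 for all tested genes. Crlf2 had the lowest unadjusted limma p of the list, 0.0306. Jak1, a kinase of the interleukin 7 receptor, was at 80.5 ± 6.52 and 95.6 ± 6.33 TPM (SD, n = 3 each, limma adjusted p 0.350), Cd27 at 68.7 ± 19.5 and 73.9 ± 10.1 TPM (limma adjusted p 0.740) and Ptprc, which encodes CD45, at 39.7 ± 4.41 and 49.5 ± 3.34 TPM (limma adjusted p 0.295). Il2rg, the common gamma chain that pairs with the interleukin 7 receptor alpha chain, was at 39.0, 37.3 and 38.7 TPM and at 27.4, 34.3 and 27.1 TPM (limma adjusted p 0.245). Crlf2, the receptor chain that pairs with the same alpha chain for the cytokine TSLP, was at 21.1, 38.8 and 19.7 TPM and at 32.2, 45.8 and 55.1 TPM (limma adjusted p 0.134). Both partners of the interleukin 7 receptor alpha chain were thus measured in libraries where Il7r itself was listed at 0. Il2rg and Crlf2 were singled out after their values were seen. After median-of-ratios scaling 3 of the list were called higher (21.4%, beside 2.88% of all tested genes) and 0 lower, with a median of 0.62. They were Jak1 (0.65, limma adjusted p 0.0183), Ptprc (0.72, limma adjusted p 0.0348) and Crlf2 (1.15, limma adjusted p 0.0402). Ccr9 and Ly6d, markers of lymphoid progenitors, were listed at 0 in all 6 libraries.

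In the B-cell receptor list, most surface and surrogate light chain genes of B cells were listed at 0, and signalling enzymes shared with other blood cells were at higher levels. Of 25 genes 8 were listed at 0 in all 6 libraries, among them Ms4a1, Igll1 and Vpreb2, and 15 were tested, of which 0 were called higher and 2 lower (13.3%, beside 10.2% of all tested genes). After median-of-ratios scaling 3 were called higher (20%, beside 2.88%) and 0 lower, with a median of 0.39. Plcg2, the phospholipase that Blnk recruits in B cells, was at 79.5, 81.7 and 69.6 TPM and at 55.3, 47.1 and 45.6 TPM (log2 change -0.63, limma adjusted p 0.0443), a call that ended after median-of-ratios scaling (-0.23, limma adjusted p 0.426) and whenever any 1 library was left out. Cd24a, a surface protein of many immature blood cells, was at 154 ± 32.9 and 177 ± 14.3 TPM (SD, n = 3 each, limma adjusted p 0.463), and Pik3cd, a phosphoinositide kinase of lymphocytes, at 47.7 ± 3.91 and 57.8 ± 6.87 TPM (limma adjusted p 0.370). Both were called higher after median-of-ratios scaling (limma adjusted p 0.0246 and 0.0277), as was Cd38 (1.69, limma adjusted p 0.0293).

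Immunoglobulin constant region transcripts were low in both groups, and Igkc fell in induced libraries. Igkc, the kappa light chain constant region, was at 8.22, 1.66 and 4.85 TPM without induction and at 1.02, 0.316 and 0.0636 TPM with it, without overlap (log2 change -1.89, SE 0.54, limma adjusted p 0.0498). The call ended after median-of-ratios scaling (-1.66, limma adjusted p 0.113) and when any library other than uninduced replicate 2 was left out. Ighm, the mu heavy chain constant region, was at 1.90, 2.04 and 8.86 TPM and at 1.25, 0 and 0 TPM, and did not pass (limma adjusted p 0.0864). Both were measured where the B-cell genes Cd79a and Ms4a1 were listed at 0. Jchain, which joins secreted immunoglobulin, was at 0.390, 0 and 0.424 TPM in the uninduced and at 0 in the induced libraries.

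The list of recombination partners holds the DNA-bending cofactors of the recombinase and the end-joining genes, which repair DNA double-strand breaks in many cell types. Of 17 genes 14 were tested, of which 0 rose and 2 fell (14.3%, beside 10.2% of all tested genes), and the median change was -0.60, beside -0.35. After median-of-ratios scaling 0 were called higher and 1 lower (7.14%, beside 3.1%), with a median of -0.24 beside 0.0032. The 3 genes below the expression minimum act in end joining. Lig4, the ligase of this repair, was at 0.119, 0.113 and 0.0971 TPM and at 0.491, 0.0266 and 0.505 TPM. Nhej1 was at 0 in each uninduced library and at 0.718, 0 and 0 TPM in the induced ones, and Polm at 0.835, 0 and 1.66 TPM and at 0, 0.531 and 0.153 TPM. Hmgb2, a DNA-bending cofactor of the recombinase that is also tied to proliferation, fell from 99.6, 115.8 and 82.8 TPM to 40.3, 41.2 and 44.5 TPM (log2 change -1.21, SE 0.18, limma adjusted p 0.00450). Hmgb2 also fell on the median-of-ratios scale (-0.81, limma adjusted p 0.0140). Rad50, of the break-sensing complex, fell from 32.3, 29.5 and 30.9 TPM to 14.6, 12.2 and 14.0 TPM (log2 change -1.13, limma adjusted p 0.00995), and missed the threshold after median-of-ratios scaling (-0.74, limma adjusted p 0.0581). Hmgb1 was at 34.8 ± 7.61 and 26.4 ± 6.27 TPM (SD, n = 3 each) and Xrcc6, which encodes Ku70, at 36.0 ± 4.90 and 24.9 ± 9.45 TPM, neither of which passed (limma adjusted p 0.362 and 0.236). The sign of the Hmgb1 change turned positive under the 3 other scalings.

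**Figure D4:**
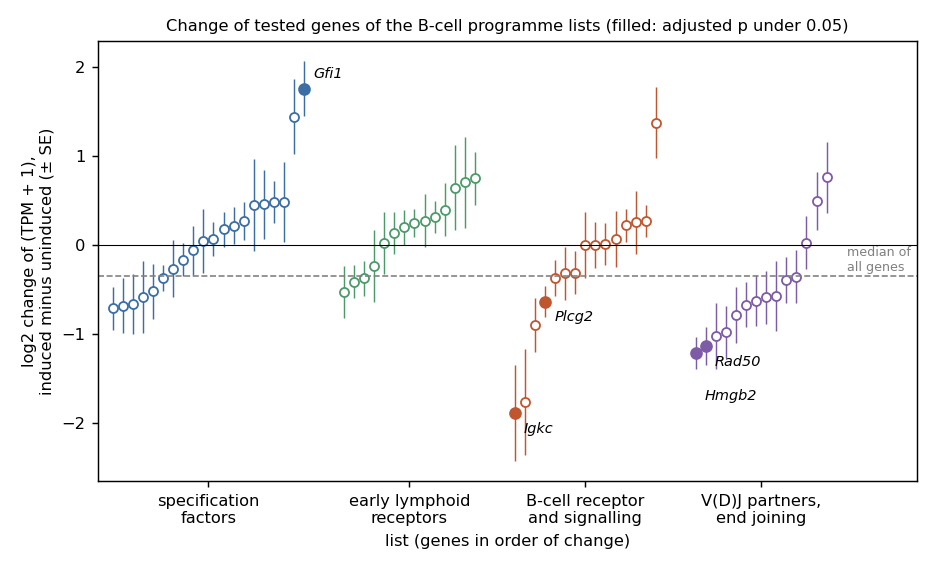
Log2 change of TPM + 1 (induced minus uninduced, ± SE) for the tested genes of the 4 B-cell programme lists, in order of change within each list; filled points have a limma adjusted p under 0.05 and the dashed line is the median of all tested genes, -0.35. Gfi1 is the single filled point above 0, at 1.76, and Igkc, Plcg2, Hmgb2 and Rad50 are filled below it.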

How the data were processed

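Total RNA of sorted stem cells was made into stranded libraries with a pico-input kit, per the labels' protocols. The submitters' processing notes name bcl2fastq, HISAT2, StringTie and DESeq2 and the build GRCm38. Versions, annotation release, strand setting and read filters are not given in the sources used here. The authors deposited TPM, 1 column per library, each summing to 999976 to 999993. The percent GC of each gene, also in the table per the file headers, was not used. Of 60496 table rows 5025 repeated a gene ID, and rows were summed per ID.

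Tests used limma 3.58.1 in R 4.3.3 on log2(TPM + 1), with a variance trend, for the 13470 genes whose mean over 6 libraries reached 1 TPM. Tests were two-sided and adjusted by Benjamini-Hochberg over all tested genes, at a threshold of 0.05. The scale understates changes of low genes. Single values were compared by exact permutation (scipy). Positions are from GENCODE release M21 (GRCm38) and promoters from RefSeq (GRCm38.p6); 55144 of 55471 IDs matched the GENCODE names.

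Near 0 means under 1 TPM in all 6 libraries. The members and lists were chosen with earlier results of these data known. Every member is named, and of each list the called genes, the 3 most abundant tested genes and up to 4 genes listed at 0; 1 such gene is not reported here. Alternatives were other scalings, pseudocounts, filters and variance models, the highest row per ID, blocking on the replicate number, and removal of single libraries.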

Additional observations from a re-analysis of the deposited data

How the results depend on the processing

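The number of commitment genes called stayed at 0 under all 17 alternatives, with a limma adjusted p of Cd79b from 0.119 to 0.528 and a log2 change of -1.05 to -0.52 without 1 library. The number near 0, 9, was 8 on the protein-coding scale, 6 at a limit of 0.1 TPM and 9 at 0.5 TPM, and 9 when any library was left out. The difference in summed level, -3.64 TPM, was -2.11 and -7.90 on the 2 scales given with it, and -5.08 to -2.32 without 1 library, where 2 against 3 libraries give p 0.2 at the smallest. The 1549 genes called among all tested became 806 with median-of-ratios scaling, 814 after quantile normalization, 886 on the protein-coding scale, 752 with no expression minimum and 767 with a constant prior variance, and 611 to 1276 without 1 library. Of the list genes, the 1 called higher was 8, 8 and 10 under those 3 scalings in turn, 2 with a pseudocount of 5, 3 with array weights and 1 without any 1 library. The 4 called lower were 1, 1 and 1 under the scalings, 2 without the filter, 2 without the variance trend, and 2 to 3 without 1 library. The cause was not tested beyond the scalings named.

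With the replicate block 902 of all tested genes were called, and 1 higher and 2 lower of the list genes, with Plcg2 (limma adjusted p 0.102) and Igkc (0.0562) lost. Same-numbered libraries share only a number: the correlations of their deviations from the group means were 0.021, -0.015 and 0.017, and 3 of 6 libraries correlated best with their own number.

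Gfi1 and Hmgb2 passed under all 17 alternatives, Rad50 under 14, Plcg2 under 5 and Igkc under 3 of the 15 in which it was tested. Signs turned for Myb (0.036, 0.022 and 0.066 under median-of-ratios, quantile and protein-coding scaling), Bcl11a (0.24, 0.23 and 0.27) and Hmgb1 (0.0075, 0.012 and 0.037), and without 1 library for Erg (-0.046 to 0.21) and Cd27 (-0.096 to 0.32). TPM keeps no depth, so how much RNA a listed 0 could hide cannot be computed here.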
